A study of Caenorhabditis elegans with 12 samples.

Results

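Alternative last exons are choices between 2 final exons of a transcript that follow the same 5′ splice site. All 296 events filed under that type in the authors' Ensembl archive 65 catalogue were taken, of 2619 events of every type in it. In each of the 296, both forms shared the exon before the last intron and its 5′ splice site (the donor) and differed in the 3′ splice site (the acceptor) at which the last exon began. The 296 events held 236 distinct acceptor pairs at 214 loci, where overlapping events on 1 strand counted as 1 locus.

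The choice was measured by RNA-seq in whole Caenorhabditis elegans larvae of the L3 stage, in 12 libraries that formed 4 groups of 3. Wild-type N2 libraries az021 to az023 (N2 az02) were set against strain DG3430, which carries sacy-1(tn1385), az024 to az026. Wild-type N2 libraries az041 to az043 (N2 az04) were set against strain SZ454, which carries mog-5(az192), az044 to az046. Worms of all groups grew at 20 °C on plates with OP50 bacteria, and RNA was taken 34 hours after bleach-isolated embryos were set to grow, made into rRNA-depleted libraries and read as pairs of 150 nt. The labels do not give the ages in other terms, the molecular nature of either allele, or separate cultures for the libraries of a group. The p-values therefore rest on the spread between these particular libraries, which may be only technical. Which N2 set belongs with which mutant was taken from the run of library numbers in the titles.

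A last exon carries the end of the coding sequence, the 3′ untranslated region and the site where the RNA is cleaved and polyadenylated. Moving its acceptor by a few nucleotides adds or removes codons or shifts the reading frame while the rest of the exon can stay the same, whereas a distant acceptor can join a different end to the message. The spliceosome fixes the acceptor in the last chemical step of splicing, and helicases act around that step. The worm protein SACY-1 corresponds to DDX41 in humans, a member of the DEAD-box helicases that associates with spliceosomes. MOG-5 corresponds to PRP22, which acts around exon ligation and frees the finished mRNA. The series title asks whether both work against use of the acceptor nearer to the donor.

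The 236 pairs fell into 2 kinds with nothing between 18 and 42 nt. Of these, 121 pairs (163 events, 114 loci) had acceptors 1 to 18 nt apart, with a median of 7 nt, and are called close. The other 115 pairs (133 events, 100 loci) had acceptors 42 to 12443 nt apart, with a median of 407 nt, and are called separated. No locus held both kinds. Close pairs were most often 6 nt apart (29 pairs) or 9 nt apart (24 pairs), and 70 of 121 were a multiple of 3 nt apart, against 33 of 115 separated pairs.

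Both kinds also differed in the exons they joined. In every close pair the 2 last exons overlapped, and their median lengths were 274 nt from the upstream and 261 nt from the downstream acceptor. In 83 separated pairs the last exons as listed in the catalogue did not overlap, and in 32 they did. Where each message ended was not measured. The shortest last exons listed for separated pairs were 3 nt from the upstream and 4 nt from the downstream acceptor. The intron was short in close pairs, with a median of 114 nt to the upstream acceptor and 115 nt to the downstream one. In separated pairs the median was 211 nt to the upstream and 925 nt to the downstream acceptor.

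In the deposited catalogue the included form always ended further downstream, and it began at the upstream acceptor in 93 of 163 close events and 27 of 133 separated events. Included use therefore pointed to different acceptors in different events, and all values are given here as upstream acceptor use, the percent of both scores given to the acceptor nearer to the shared donor. Acceptor positions are those of the first exonic base, 1-based, on build ce10. Events that differed only in where the last exon ended had the same value, since the 105 events of the 45 pairs with more than 1 event did not differ in any library. The acceptor pair was thus the unit of measurement. The acceptors of 76 close pairs (109 events) and 3 separated pairs were also listed as alternative 3′ splice sites in the authors' library-intron catalogue, with the same value in every library, so those values are 1 measurement filed under 2 types.

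Between 280 and 291 of the 296 events were listed per library, and 275 in all 12. This left 111 close and 104 separated pairs listed in all 12 libraries, while 10 close and 11 separated pairs were missing from at least 1. Of the pairs missing somewhere, 6 close and 8 separated were listed more often in the az04 and mog-5 libraries, and 2 close and 1 separated more often in the az02 and sacy-1 libraries. Many values stood at the ends of the scale, at 0.1% or as far below full use. In all 12 libraries this held for 19 close pairs (5 at the low end, 14 at the high end) and 15 separated pairs (6 and 9). Read totals were not among the values used. Depth is therefore unknown for each value, and no counting interval is given. In whole larvae, a change in use within cells and a change in the share of tissues that use each acceptor cannot be told apart.

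In wild type, many last exon choices were strongly one-sided, with a broad middle. In N2 az02, 29 of 111 close pairs used the upstream acceptor below 10%, 33 over 90%, and 49 lay in between, with a median of 37.7%. The 104 separated pairs gave 25, 30 and 49, with a median of 63.5%. In N2 az04 the close pairs gave 24, 35 and 52 with a median of 53%, and the separated pairs 22, 28 and 54 with a median of 64.7%. The median SD between the 3 N2 az02 libraries was 1.66 points for close and 2.13 points for separated pairs. These medians include 28 close and 23 separated pairs with the same value in all 3 libraries, and single pairs spread more widely.

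**Figure D1:**
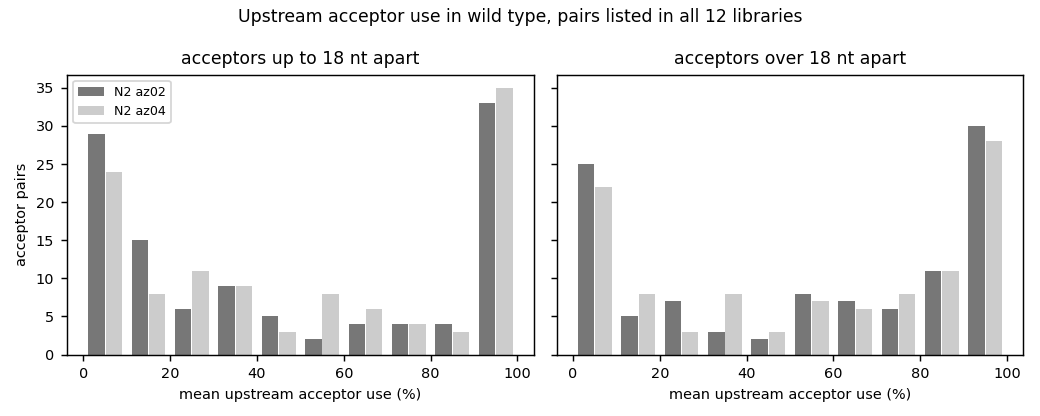
Number of acceptor pairs (vertical axis) by mean upstream acceptor use in percent (horizontal axis, bins of 10 points) in N2 az02 and N2 az04, for 111 pairs up to 18 nt apart and 104 pairs further apart. The end bins are the tallest in both kinds, with 29 close pairs below 10% and 33 over 90% in N2 az02.

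A good part of the choices hardly moved over the whole study. The range over all 12 libraries was under 5 points in 40 of 111 close pairs and 35 of 104 separated pairs. Among these were the 19 close and 15 separated pairs that stood at an end of the scale in all 12 libraries. A range of 50 points or more was found in 7 close pairs and 1 separated pair. Use stayed between 10% and 90% in every library in 32 close and 33 separated pairs.

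In sacy-1(tn1385) larvae, close last exon pairs used the upstream acceptor more than in N2 az02. Of 111 close pairs tested, 8 (12 events at 8 loci) were called, meaning a limma adjusted p below 0.05 over the whole catalogue and a difference of at least 15 points. All 8 moved upstream. Over the whole catalogue 17 of 2382 tested events, 0.714%, were called in this comparison. That count is of events rather than pairs, and these 12 last exon events are part of it. No separated pair was called among 104 tested. At an unadjusted limma p below 0.05, where 12.6% of the catalogue lay, 35 close pairs (31.5%) were higher upstream and 0 lower, and 4 separated pairs were higher and 8 lower (11.5%).

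Both the direction and the kind of the calls depended on the wild-type set. With N2 az04 as the control of sacy-1, 18 last exon events in 12 pairs were called by limma, 8 of them among the 12 events above, where 2.84% of the catalogue was called. The 6 close pairs called were all higher upstream, but 6 separated pairs were called too, 2 higher and 4 lower. At an unadjusted p below 0.05, where 24.1% of the catalogue lay, 24 close pairs were higher and 7 lower (27.7%), and 14 separated pairs were higher and 16 lower (28%).

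The pair with the smallest p lay on chromosome IV, plus strand, 6324715 to 6326391, with acceptors at 6325300 and 6325309, 9 nt apart. Upstream acceptor use was 12.6%, 16.4% and 14.9% in N2 az02 and 76.5%, 76.5% and 76.2% in sacy-1. The minor acceptor of wild type was thus the major one in all 3 mutant libraries, with no overlap. The difference was 61.8 points (95% interval 59 to 64.6, limma adjusted p = 0.000107). In N2 az04 the values were 23.5%, 15.5% and 20.2% and in mog-5 45.6%, 50.3% and 45.1%. The mog-5 libraries lay between wild type and sacy-1 and overlapped neither, with a difference to N2 az04 of 27.3 points (20.1 to 34.6, limma adjusted p = 0.101).

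On chromosome II, minus strand, 12209075 to 12211109, acceptors at 12209775 and 12209766 are also 9 nt apart, behind an intron of 973 nt. Upstream use was 10.3%, 12.4% and 7.23% in N2 az02 and 82.6%, 81.8% and 81.4% in sacy-1. The groups stood far apart and the sacy-1 libraries lay within 2 points of each other. The difference was 72 points (68 to 75.9, limma adjusted p = 0.000167). N2 az04 gave 25.9%, 14.2% and 17.4% and mog-5 54.2%, 59.8% and 51.1%. The mog-5 difference of 35.8 points (24.9 to 46.8) had a limma adjusted p of 0.122, again with no overlap. These 2 calls in sacy-1 were kept without any 1 library and under every alternative run.

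Of the other 6 called pairs, each was lost without at least 3 of the 6 libraries, although none changed direction. The widest shift among them was on chromosome II, minus strand, 10796527 to 10797025, acceptors 10796915 and 10796906, where the upstream intron is 43 nt. Use was 33.3%, 43.5% and 34.6% in N2 az02 and 87%, 90.4% and 94.4% in sacy-1. All sacy-1 libraries were above all N2 az02 libraries, by 53.4 points (43.6 to 63.3, limma adjusted p = 0.0149). Leaving out az021 (51.5 points), az023 (52.2 points), az025 (53.5 points) or az026 (51.6 points) ended the call, as did the other N2 set (31.6 points) and all 6 N2 libraries (42.5 points). N2 az04, at 66.8%, 47.1% and 63%, was itself above N2 az02, and mog-5 reached 79%, 85.4% and 80%.

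On chromosome X, minus strand, the acceptors at 4411713 and 4411704 are 9 nt apart behind an upstream intron of 43 nt. Use was 69.4%, 69% and 63% in N2 az02. In sacy-1 it was 95% in az026 and at the upper end of the scale in az024 and az025. The upstream acceptor led in wild type already and was close to the only one in sacy-1. Here N2 az04, at 68%, 68.7% and 61.3%, was near N2 az02, and mog-5, at 86.8%, 84.7% and 85.3%, lay in between without overlap. The differences were 31.1 points in sacy-1 (24.4 to 37.8, limma adjusted p = 0.0228) and 19.6 in mog-5 (13.4 to 25.9, limma adjusted p = 0.123). Leaving out any 1 library ended the sacy-1 call, at 32.3 points without az021, 32.1 without az022, 29.1 without az023, 30.3 without az024, 30.3 without az025 and 32.8 without az026, and so did the arcsine square root scale (limma adjusted p = 0.0688).

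Another pair on chromosome X, minus strand, with acceptors at 8474262 and 8474254 (8 nt, upstream intron of 46 nt), moved in the same way from a lower base. N2 az02 gave 40.3%, 39% and 38.6% and sacy-1 63.3%, 56.5% and 59%. N2 az04 gave 33.8%, 35.8% and 36.4% and mog-5 46.3%, 45.5% and 51.6%. Neither mutant overlapped either N2 set. The differences were 20.3 points in sacy-1 (15 to 25.5, limma adjusted p = 0.0335) and 12.5 points in mog-5 (7.2 to 17.8, limma adjusted p = 0.145). The sacy-1 call ended without az021 (20.8 points), az022 (20.1 points), az023 (19.9 points), az025 (21.8 points) or az026 (20.5 points), and with a variance trend (limma adjusted p = 0.0501).

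A pair of acceptors 6 nt apart on chromosome I, plus strand, 8108722 and 8108728, rose from 9.52%, 12.2% and 9.92% to 37.1%, 33.3% and 37.6%. The groups did not overlap, and the difference was 25.4 points (21.4 to 29.5, limma adjusted p = 0.0126). N2 az04 stood at 22.9%, 16.1% and 17.3% and mog-5 at 23%, 34.5% and 25.3%, a difference of 8.79 points (limma adjusted p = 0.558). The mog-5 and N2 az04 libraries nearly touched. The sacy-1 call ended without az021 (24.9 points), az023 (25.1 points) or az026 (24.7 points).

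The last 2 called pairs lay nearest to the threshold, both at a limma adjusted p of 0.0446. On chromosome IV, minus strand, acceptors 12622514 and 12622502 are 12 nt apart and the upstream intron is 42 nt. Use was 1.52%, 6.67% and 1.47% in N2 az02 and 18.4%, 19.5% and 19.7% in sacy-1, so an acceptor that was rare in N2 az02 was a regular minor one in the mutant. The difference was 15.9 points (11.4 to 20.5), and the call ended without az021 (15.1 points), az023 (15.1 points), az024 (16.3 points), az025 (15.8 points) or az026 (15.7 points). It also ended against N2 az04 (11.8 points) or all 6 N2 libraries (13.9 points), with a score sum of at least 500, on the arcsine square root scale, and with each acceptor pair entered once (limma adjusted p 0.0505, 0.0991 and 0.0588). N2 az04 gave 10%, 3.83% and 8.19% and mog-5 9.74%, 17.8% and 11.1%, which overlapped.

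On chromosome II, minus strand, acceptors 8182587 and 8182574 are 13 nt apart. Use was 22.7%, 34.8% and 29.4% in N2 az02 and 59.1%, 63.9% and 63.3% in sacy-1. These groups stood apart, by 33.2 points (23.5 to 42.9). N2 az04, at 57.4%, 33.9% and 47.5%, and mog-5, at 47.5%, 66.2% and 45.3%, overlapped each other and spread widely. Leaving out any 1 library ended the sacy-1 call, at 30 points without az021, 36.1 without az022, 33.4 without az023, 34.7 without az024, 32.3 without az025 and 32.6 without az026. Against N2 az04 the difference was 15.9 points and against all 6 N2 libraries 24.5 points, neither called. It was also lost with a score sum of at least 500, a variance trend, the arcsine square root scale and each pair entered once (limma adjusted p 0.0505, 0.0501, 0.0583 and 0.0588). The score sum filter again acted only through other event types of the catalogue.

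**Figure D2:**
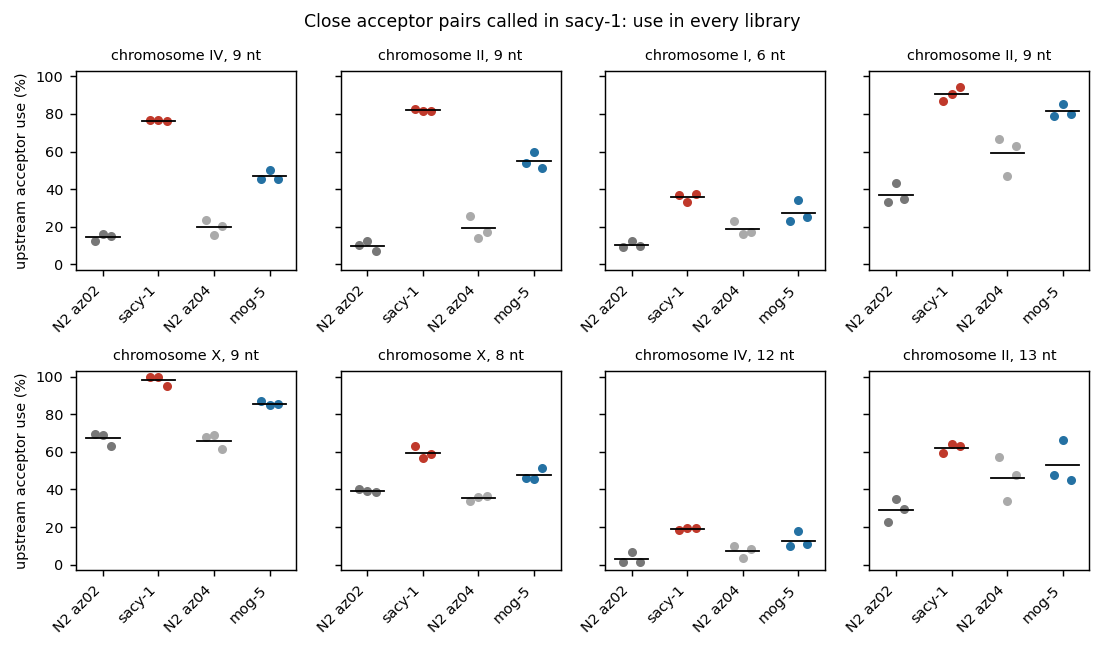
Upstream acceptor use in percent (vertical axis) in each of the 12 libraries (points) with the group mean (bar), for the 8 close pairs called in sacy-1, by limma adjusted p from the smallest. The sacy-1 libraries lie above all N2 az02 libraries in each panel, and at the chromosome IV pair 9 nt apart they stand near 76% against 12.6% to 16.4%.

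The called pairs were the upper part of a wider movement. Without overlap between libraries, 38 of 111 close pairs were higher and 2 lower in sacy-1 (36%), where 16.3% of the catalogue did not overlap. A difference of 15 points or more was reached by 20 close pairs in sacy-1, all upwards. Between the wild-type sets, 17 of 112 close pairs were higher in N2 az04 by as much and 0 lower. Of the 20 pairs in sacy-1, 12 did not pass the adjusted test. Among them were the acceptors 10187250 and 10187262 on the plus strand of chromosome I, a pair 12 nt apart. It went from 33.3%, 50% and 46.9% to 83.3%, 97.7% and 90%, by 46.9 points (limma adjusted p = 0.0891). N2 az04, at 82.7%, 56.5% and 74.8%, stood well above N2 az02 at this pair, and against it the sacy-1 difference was 19 points. Of the 111 close pairs, 11 used the downstream acceptor most in N2 az02 and the upstream one in sacy-1, and 0 the reverse. From N2 az02 to N2 az04, both wild type, 9 of these pairs turned to the upstream acceptor and 0 to the downstream one. From N2 az04 to mog-5 it was 3 and 1.

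A pair 9 nt apart on chromosome III, minus strand, at 345081 and 345072, shows the opposite limit, a shift below 15 points with little spread. N2 az02 gave 47.5%, 48.6% and 48.9%, sacy-1 59%, 62.5% and 61.8%, N2 az04 49.4%, 46.5% and 45%, and mog-5 56.7%, 59.5% and 60.5%. Both wild-type sets stood just below 50% and both mutants near 60%, without overlap. The sacy-1 difference was 12.8 points (9.8 to 15.7, limma adjusted p = 0.0232), and that of mog-5 11.9 points (7.55 to 16.3, limma adjusted p = 0.123).

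Within the close pairs, the counts differed by spacing, frame and starting use, which are themselves linked, and these differences were not tested. In sacy-1, 24 of 61 pairs 7 to 18 nt apart passed an unadjusted limma p below 0.05 and 11 of 50 pairs 1 to 6 nt apart, all upwards. Among pairs a multiple of 3 nt apart it was 27 of 65, and among the others 8 of 46. However, 16 of those 46 stood at an end of the scale in all 12 libraries, against 3 of the 65, and only 11 of the 46 lay between 10% and 90% in N2 az02, against 38 of the 65.

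Grouping the close pairs by their use in N2 az04, libraries that the sacy-1 comparison does not use, showed where the shift lay. Of 52 pairs between 10% and 90% there, 28 were higher in sacy-1 at an unadjusted limma p below 0.05 and 0 lower, with a median difference of 7.13 points over the 52. Of 24 pairs below 10%, 6 were higher, and of 35 pairs over 90%, which have little room to rise, 1. The median difference over all 111 was 1.21 points.

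The 8 called pairs included 4 whose intron to the upstream acceptor was shorter than 50 nt, a length class chosen here after the values were seen. Of 40 close pairs with such an intron, 17 were higher in sacy-1 at an unadjusted limma p below 0.05, and of 71 with a longer one, 18. In mog-5 the numbers were 15 of 41 and 11 of 73. At an end of the scale in all 12 libraries stood 3 of the 40 and 16 of the 71, and between 10% and 90% in N2 az02 lay 16 and 33, and the difference between both length classes was not tested.

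In mog-5(az192) larvae, close pairs also leaned upstream against N2 az04, and none passed the adjusted test. Of 114 close and 109 separated pairs tested against N2 az04, 0 were called by limma, where 1 of 2498 events of the catalogue, 0.04%, was. At an unadjusted p below 0.05, where 10.2% of the catalogue lay, 26 close pairs (22.8%) were higher upstream and 0 lower. Of the separated pairs, 5 were higher and 4 lower (8.26%). Without overlap, 27 close pairs were higher and 0 lower (23.7%, against 13.9% of the catalogue), and 8 close pairs were higher by 15 points or more.

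The count of 0 calls depended on the control set and the fit. With libraries of the other N2 set (N2 az02) as the control, 9 last exon events (5 close pairs and 1 separated pair, all higher upstream) were called in mog-5 by limma, where 1.62% of the catalogue was called. With all 6 N2 libraries 5 events were called, and in 1 fit of all 12 libraries 5. The share of the whole catalogue called in the latter 2 settings is not given here, so a rise particular to last exons cannot be read from them. In the fit of all 12 libraries, both the chromosome IV pair at 6325300 and the chromosome II pair at 12209775 were called, at the same differences of 27.3 and 35.8 points.

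Some close pairs separated mog-5 from N2 az04 without overlap although they were not called. On chromosome I, minus strand, acceptors 10581825 and 10581816 (9 nt) gave 15.4%, 11.1% and 12.3% in N2 az04 and 27.5%, 29.6% and 26.1% in mog-5. N2 az02 stood at 11.1%, 11.7% and 18.5% and sacy-1 at 26.8%, 36% and 40.9%. Every mutant library was above every wild-type library. The difference was 14.9 points in mog-5 (10.7 to 19, limma adjusted p = 0.101) and 20.8 in sacy-1 (8.69 to 33, limma adjusted p = 0.173).

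By use in N2 az02, which the mog-5 comparison does not use, the counts were as follows. Of 50 close pairs between 10% and 90% in N2 az02, 19 were higher in mog-5 at an unadjusted limma p below 0.05 and 0 lower, with a median difference of 5.13 points. Of 29 pairs below 10% it was 5, and of 33 pairs over 90%, with little room to rise, 2. These strata were not tested against each other. By spacing, it was 21 of 63 pairs 7 to 18 nt apart and 5 of 51 pairs 1 to 6 nt apart. By frame, it was 21 of 66 pairs a multiple of 3 nt apart and 5 of 48 others.

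The lists of close pairs from both mutants, compared with separate N2 sets, overlapped in part. At an unadjusted limma p below 0.05, 35 close pairs were higher in sacy-1 and 26 in mog-5, and 16 pairs were on both lists, 45.7% of the sacy-1 list and 61.5% of the mog-5 list. Of all close pairs tested, 31.5% were on the sacy-1 list and 22.8% on the mog-5 list. Of the 35 pairs of the sacy-1 list, 32 were also higher in mog-5 by any amount. Of the 26 of the mog-5 list, 24 were higher in sacy-1. The share of all close pairs higher by any amount is not given here. Whether the overlap exceeds what the shared lean gives was not tested. Among separated pairs the lists of 12 and 9 pairs shared 0. Of the 12, 5 were higher and 7 lower in mog-5, and of the 9, 3 were higher and 4 lower in sacy-1.

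The 2 mutant effects differed in size at the 2 pairs of smallest p. In 1 fit of all 12 libraries, the sacy-1 shift exceeded the mog-5 shift by 34.5 points at the chromosome IV pair (27.7 to 41.3, limma adjusted p = 0.00105). At the chromosome II pair at 12209775 it was greater by 36.1 points (25.9 to 46.3, limma adjusted p = 0.01). These were the only last exon pairs called for this difference, where 0.252% of the catalogue was called. At an unadjusted limma p below 0.05 stood 18 of 111 close pairs, 15 with the greater shift in sacy-1 and 3 with the greater in mog-5, and 11 of 104 separated pairs, against 9.16% of the catalogue.

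Averaged over all close events listed in every library, upstream use was higher in sacy-1 than in its N2 set. The 3 N2 az02 libraries gave 44.3%, 47.4% and 46% and the sacy-1 libraries 53.1%, 53.2% and 53.2%, which do not overlap. N2 az04 gave 52%, 47.5% and 50.2% and mog-5 52.9%, 56.2% and 51.9%, which overlap at 1 library of each. As means these were 45.9% ± 1.57 (SD, n = 3) and 53.2% ± 0.048 for N2 az02 and sacy-1, and 49.9% ± 2.26 and 53.7% ± 2.28 for N2 az04 and mog-5. The mean difference was 7.31 points for sacy-1 and 3.78 for mog-5, and both N2 sets differed by 3.99. Pairs with more than 1 event count more than once in these means. With each acceptor pair entered once the differences were 6.89, 3.79 and 4.03 points in the same order. Against N2 az04 in place of N2 az02, the sacy-1 difference was 3.32 points, and against N2 az02 that of mog-5 was 7.77.

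Averaged over separated events, the 4 groups were nearly level. They stood at 56% ± 0.17 and 55.4% ± 0.3 for N2 az02 and sacy-1, and at 56.5% ± 0.43 and 56.2% ± 0.3 for N2 az04 and mog-5. The differences were -0.6 points for sacy-1, -0.25 for mog-5 and 0.49 between both N2 sets. A level mean can hide shifts in both directions, so the single pairs are described next.

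**Figure D3:**
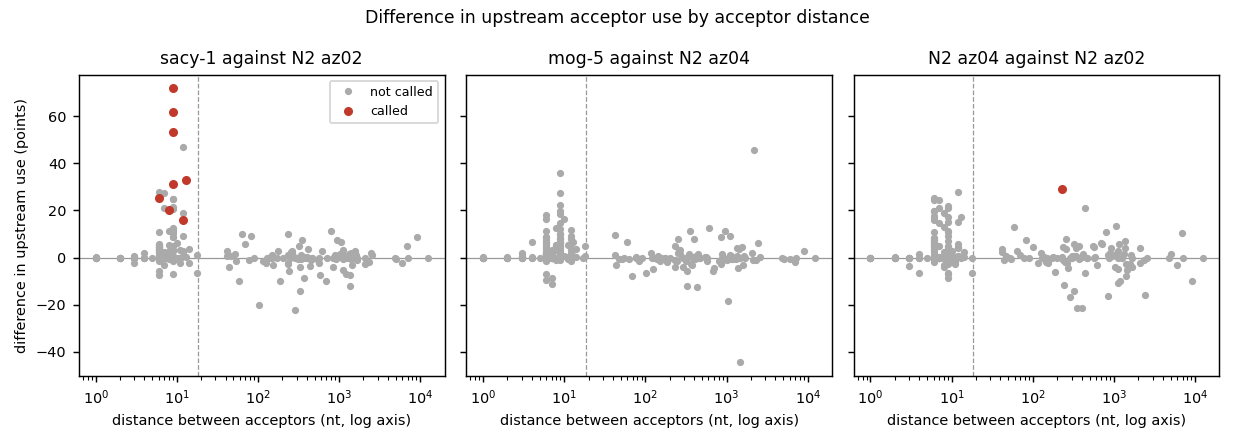
Difference in upstream acceptor use in percentage points (vertical axis) against the distance between acceptors in nt (horizontal axis, log scale) for each pair tested, in each mutant against its own N2 set and between the N2 sets. In sacy-1 the points up to 18 nt reach 72 points above 0, while points from 42 nt on scatter on both sides.

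Most pairs of both kinds had an interval that stayed within the minimum difference on both sides of 0. The 95% interval of the difference lay within 15 points on both sides of 0 for 74 of 104 separated pairs in sacy-1 and 87 of 109 in mog-5, and for 73 of 111 and 75 of 114 close pairs. These counts include pairs that stood at an end of the scale throughout. Wide intervals, over 15 points to each side of their centre, were found for 15 separated and 18 close pairs in sacy-1. In mog-5 it was 14 separated and 17 close pairs. A difference of the minimum size was within the error at those pairs. On either side of the dividing distance, the 2 pairs 18 nt apart, on chromosome IV at 7104308 and chromosome V at 13037055 and 13037073, stayed at or below 20% in all libraries. Of the pairs 42 nt apart, that on chromosome V, plus strand, at 4221825 ranged from 83.8% to 95.3%, and the other, at 9087264, is described with mog-5.

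The separated pair with the smallest p in sacy-1 lay on chromosome IV, minus strand, acceptors 13151083 and 13150757, 326 nt apart. Use was 59.2%, 54% and 58.6% in N2 az02 and 40.9%, 45.1% and 43.6% in sacy-1. The upstream last exon was used less in all 3 mutant libraries, by 14.1 points (8.88 to 19.3, limma adjusted p = 0.0895). N2 az04, at 42.8%, 36.5% and 49.4%, stood at the sacy-1 level rather than that of N2 az02, and against it the sacy-1 difference was 0.337 points the other way. In mog-5 use was 45.4%, 35% and 31.2%, overlapping N2 az04.

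The separated pairs at 8746303 and 5590594 had little spread and a lower mean in sacy-1 than in either N2 set, by amounts that differed. On chromosome II, plus strand, the acceptors at 8746303 and 8746536 gave 98.3%, 98% and 97.6% in N2 az02 and 95.2%, 96.2% and 95.4% in sacy-1, a difference of -2.35 points (limma adjusted p = 0.0927). On chromosome II, minus strand, those at 5590594 and 5589910 gave 71.4%, 76.8% and 72.7% against 65.4%, 64.9% and 61.3% (-9.78 points, limma adjusted p = 0.146). Neither pair overlapped between these groups. Against N2 az04 the sacy-1 difference at 8746303 was -1.37 points, not called. N2 az04 gave 81.1%, 78.9% and 79.5% at 5590594, and against it the sacy-1 difference of -16 points was called.

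A pair on chromosome X, minus strand, at 4677668 and 4677609, 59 nt apart, differed from wild type in opposite directions in the 2 mutants. Use was 61.2%, 55.8% and 54.2% in N2 az02 and 47.2%, 45.6% and 47.8% in sacy-1, lower without overlap. In N2 az04 it was 71.2%, 70% and 68.7% and in mog-5 72.1%, 74.9% and 82.4%, higher without overlap. The differences were -10.2 points in sacy-1 (limma adjusted p = 0.154) and 6.56 points in mog-5 (limma adjusted p = 0.571), and the test of the difference between both gave -16.7 points (limma adjusted p = 0.156). Against N2 az04 the sacy-1 difference of -23.1 points was called.

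On chromosome II, minus strand, the pair at 3921805 and 3920954, 851 nt apart, was lower in sacy-1 against one N2 set and higher against the other. Use was 84%, 83.3% and 85.7% in N2 az02, 80.7%, 80.8% and 79% in sacy-1 and 64.2%, 72.7% and 67% in N2 az04. The sacy-1 libraries lay between the wild-type sets. The difference was -4.2 points to N2 az02 (limma adjusted p = 0.16) and 12.2 points to N2 az04.

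In mog-5, the separated pair of smallest p had the shortest distance of its kind, 42 nt, on chromosome IV, plus strand, at 9087264 and 9087306. N2 az04 gave 58.4%, 56.3% and 59.9% and mog-5 69.8%, 68.1% and 65.8%. N2 az02, at 54.6%, 56.9% and 55.5%, and sacy-1, at 59%, 52.6% and 56.9%, overlapped, so the mog-5 libraries stood above all other 9. The mog-5 difference was 9.7 points (5.74 to 13.7, limma adjusted p = 0.145), and that of sacy-1 0.49 points. The test of the difference between both gave -9.21 points (limma adjusted p = 0.228).

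An upstream last exon that was almost unused in the other groups had its highest use in mog-5 on chromosome X, minus strand, at 10795986 and 10795142, 844 nt apart. Its use was 0.1% in all N2 az02 and sacy-1 libraries, 0.1%, 2.94% and 0.1% in N2 az04, and 6.67%, 13% and 9.09% in mog-5. The mog-5 libraries lay above the other 9, by 8.55 points over N2 az04 (3.25 to 13.9, limma adjusted p = 0.279). A further pair on chromosome II, minus strand, at 9259557 and 9259324, 233 nt apart, gave 33.4%, 34.4% and 33% in N2 az04 and 29.4%, 30.9% and 28.9% in mog-5 (-3.91 points, limma adjusted p = 0.185). N2 az02, at 27.9%, 31.4% and 28.3%, overlapped mog-5 there.

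At 2 pairs on chromosome V, plus strand, N2 az04 itself stood apart from the other groups. The acceptors 8183011 and 8183261 stood at the upper end of the scale in all libraries of N2 az02, sacy-1 and mog-5 and at 98.3%, 98.5% and 97% in N2 az04, so mog-5 was 2 points higher than N2 az04 (limma adjusted p = 0.279). The acceptors 8338990 and 8340413, 1423 nt apart, gave 91.4%, 91.3% and 91% in N2 az04 and 95.7%, 95.3% and 93% in mog-5, 3.42 points higher (limma adjusted p = 0.285). N2 az02, at 97.6% in az023 and at the upper end of the scale in az021 and az022, was above both, and against it mog-5 was 4.45 points lower, so that the direction turned with the control set.

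**Figure D4:**
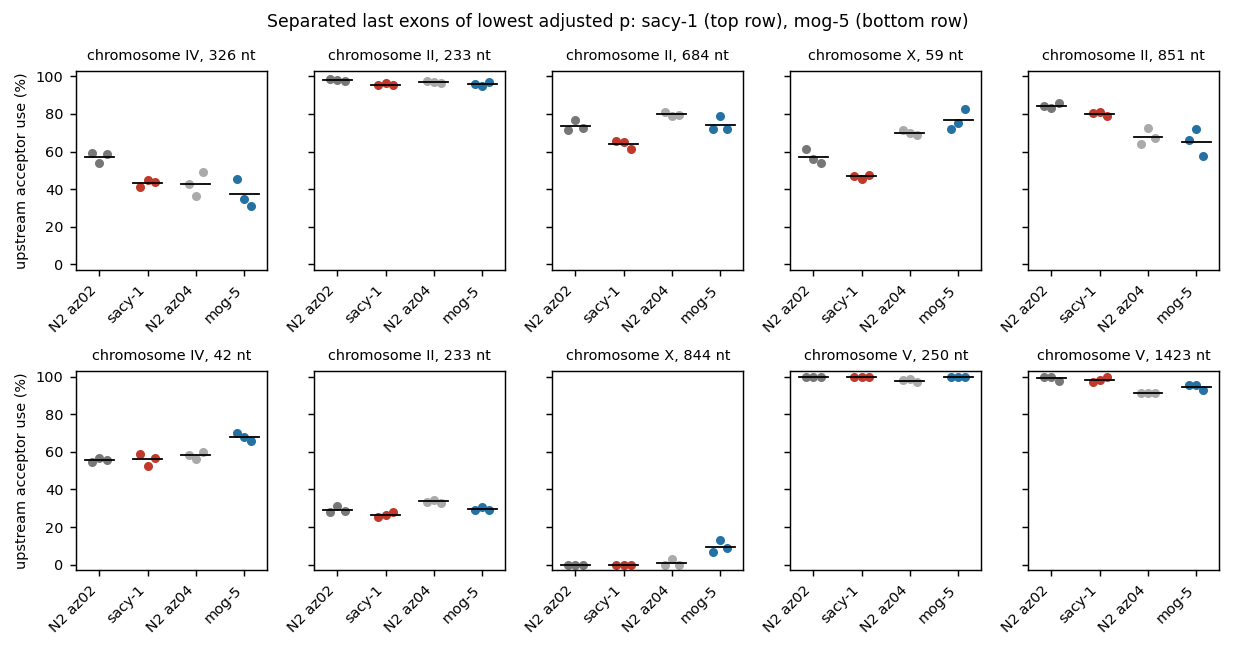
Upstream acceptor use in percent (vertical axis) in each library (points) with the group mean (bar) for the 5 separated pairs of smallest limma adjusted p without overlap in sacy-1 (top) and in mog-5 (bottom). The chromosome IV pair 326 nt apart lies between 40.9% and 45.1% in sacy-1 with the N2 az04 mean at the same level, and the chromosome IV pair 42 nt apart is highest in mog-5.

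The largest differences of separated pairs from their own N2 set came with wide intervals. Chosen after their values were seen, the extremes were a pair on chromosome X, minus strand, at 17388225 and 17386015, 45.5 points higher in mog-5 with an interval of -0.488 to 91.5, and a pair on chromosome IV, minus strand, at 10329173 and 10327693, 44.3 points lower with an interval of -119 to 30.3. In sacy-1, a pair on chromosome IV, minus strand, at 12907788 and 12907686, 102 nt apart, gave 62.9%, 68% and 68.5% in N2 az02 and 53.3%, 38.5% and 47.1% in sacy-1, 20.2 points lower without overlap (limma adjusted p = 0.174).

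Some separated choices used both last exons substantially and stayed within a narrow range. Those nearest to even use with the smallest spread included a pair on chromosome III, minus strand, at 882201 and 882047. It ranged from 52.8% to 60% over the 12 libraries, with differences of -3.28 points in sacy-1 (-6.91 to 0.357) and -0.307 in mog-5 (-7.14 to 6.52). A pair 445 nt apart on chromosome V, plus strand, at 9707063 and 9707508, ranged from 33.5% to 43%. Its differences were -0.87 points in sacy-1 (-5.56 to 3.82) and 1.66 in mog-5 (-3.77 to 7.09), each interval lying within 15 points of 0 on both sides. The acceptors 5577245 and 5576678 on the minus strand of chromosome V, 567 nt apart, ranged from 59.6% to 69.4%, with differences of -2.49 points in sacy-1 (-7.57 to 2.6) and -1.28 in mog-5 (-5.43 to 2.87). A pair 1022 nt apart on chromosome X, minus strand, at 15270679 and 15269657, ranged from 54% to 62.8%. Its differences were 1.68 points in sacy-1 (-3.96 to 7.31) and -0.9 in mog-5 (-3.39 to 1.59). The narrow ranges follow from choosing pairs by their spread over these libraries. Against the other N2 set, sacy-1 differed by -1.17 points at 882201, 5.64 at 9707063, -6.81 at 5577245 (limma adjusted p = 0.023) and 5.78 at 15270679. In mog-5 it was -2.41, -4.85, 3.04 and -5 points. None was called.

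The 2 wild-type sets differed from each other at last exons, and the sets also differ in whatever separates both library series, which the labels do not describe. By limma, 1 last exon pair was called, in 2405 events tested of which 0.499% were called. At an unadjusted p below 0.05, where 18.7% of the catalogue lay, 23 close pairs were higher in N2 az04 and 2 lower (22.3%), and 11 separated pairs were higher and 11 lower (21.2%). Without overlap, 25 close pairs were higher and 3 lower, and 11 separated pairs higher and 13 lower, 25% and 23.1%, against 23.2% of the catalogue. The lean of close pairs towards upstream use in N2 az04 therefore had the same sign as that in both mutants, and its cause was not tested.

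The called pair lay on chromosome I, minus strand, 14622418 to 14622886, at acceptors 14622732 and 14622500, 232 nt apart. Use was 3.97%, 10.6% and 7.09% in N2 az02 and 31.9%, 37.6% and 39.4% in N2 az04, 29.1 points higher (21.5 to 36.6, limma adjusted p = 0.0404). The mutants lay nearer to their own library series, with 14.3%, 20% and 17.5% in sacy-1 and 35.9%, 43.5% and 44.8% in mog-5. It was no longer called without az021 (27.5 points), az022 (30.7 points), az023 (29 points), az042 (28.4 points) or az043 (27.5 points).

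The other pairs with the largest differences between N2 sets did not share 1 pattern. At the close pair on chromosome V, minus strand, 9776300 and 9776293 (7 nt), N2 az02 gave 20.6%, 40.3% and 29.7% and sacy-1 22.9%, 35.8% and 22.1%. N2 az04 gave 62.6%, 42.6% and 58.4% and mog-5 35.2%, 58% and 45%. Both mutants overlapped their own N2 set, and the N2 sets differed by 24.4 points without overlap (limma adjusted p = 0.21). At the separated pair on chromosome IV, plus strand, 8929803 and 8930203 (400 nt), N2 az02 gave 93.8%, 83.7% and 91.2% and N2 az04 66.7%, 72.7% and 64.5%, 21.6 points lower (limma adjusted p = 0.0729). The sacy-1 libraries, at 88.1%, 91% and 89.7%, differed from N2 az02 by 0.047 points, and against N2 az04 they were 21.6 points higher, which was called.

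The other 2 close pairs had sacy-1 far from its own N2 set. One is the chromosome I pair at 10187250 given above, where N2 az04 was 28 points over N2 az02 (limma adjusted p = 0.199) and mog-5, at 84.4%, 85.6% and 79.3%, overlapped N2 az04. The other, on chromosome I, plus strand, at 14476333 and 14476339 (6 nt), gave 27%, 40.3% and 30% in N2 az02 and 57.1%, 69.5% and 48% in sacy-1. N2 az04, at 59%, 48.6% and 66.1%, and mog-5, at 59.7%, 73.5% and 54.1%, overlapped each other and sacy-1. The N2 sets differed by 25.4 points (limma adjusted p = 0.131), and sacy-1 was 25.8 points over N2 az02 (limma adjusted p = 0.241) but 0.343 points over N2 az04.

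A separated pair on chromosome II, plus strand, at 4952484 and 4952834 (350 nt), gave 78.8%, 54.6% and 57.1% in N2 az02 and 36.4%, 50.9% and 39.1% in N2 az04. These wild-type libraries did not overlap but spread widely, with N2 az04 21.4 points lower (limma adjusted p = 0.292) and 13.7 points lower without az021. The sacy-1 libraries, at 70.1%, 64.9% and 77.4%, and the mog-5 libraries, at 55.7%, 38.9% and 65.5%, each overlapped their own N2 set.

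At some loci 3 acceptors competed behind 1 donor, and the pairwise values could be turned into shares of all 3. At 8 such loci this was checked by whether the ratios of first to second and second to the last acceptor multiply to that of first to last, and at 5 they did within 0.05 on the log2 scale in every library. The other 3 loci held values at the ends of the scale.

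At the close locus on chromosome X, minus strand, 4246530 to 4246992, use of the first acceptor was higher in both mutants than in both N2 sets. The first acceptor took 55.6% ± 1.56 (SD, n = 3) in N2 az02 and 55.6% ± 1.07 in N2 az04, but 61.9% ± 0.82 in sacy-1 and 62.2% ± 0.47 in mog-5. The second acceptor took 39.8% and 40.1% in the wild-type sets az02 and az04, and 35.5% and 35.6% in sacy-1 and mog-5. The third acceptor took 4.58% and 4.27% in the wild-type sets and 2.61% and 2.19% in sacy-1 and mog-5. For the first acceptor against the second, 4246820 against 4246812, 8 nt apart, the libraries of N2 az04 gave 58.5%, 57.1% and 58.7% and of mog-5 63.5%, 63.4% and 64%. Every mutant library stood above every wild-type library at this pair, since N2 az02 reached 55.6%, 60.8% and 58.7% and sacy-1 64.5%, 62.9% and 63.4%. The differences were 5.47 points in mog-5 (4.07 to 6.87, limma adjusted p = 0.101) and 5.23 points in sacy-1 (1.12 to 9.34, limma adjusted p = 0.274).

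At the close locus on chromosome III, 4339481 to 4340455, the second acceptor was the main one throughout. The first acceptor took 14.4% ± 1.84 and 28.4% ± 8.06 in the wild-type sets az02 and az04, and 22.3% ± 1.62 and 27.7% ± 7.23 in sacy-1 and mog-5. The sacy-1 mean thus lay between both N2 sets, and mog-5 did not exceed N2 az04. At the separated locus on chromosome I that held the pair called between N2 sets, the third acceptor, 1147 nt from the first, took most of the use. Its share was 93.1% ± 1.24 and 92.9% ± 0.55 for N2 az02 and sacy-1, and 84.6% ± 0.48 and 84.9% ± 2.24 for N2 az04 and mog-5, so each mutant lay at the level of its own N2 set. The first acceptor went from 0.513% ± 0.31 in N2 az02 to 5.58% ± 0.7 in N2 az04.

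At the separated locus on chromosome X, 15269057 to 15271473, the third acceptor took 36.5% ± 2.18 and 34.8% ± 1.74 for N2 az02 and sacy-1, and 40.6% ± 0.87 and 42.4% ± 0.75 for N2 az04 and mog-5, with the second in the lead in every library. At that on chromosome II, 3920597 to 3924570, the first acceptor kept 70.9% to 78.7% in all 12 libraries. The third took 4.03% ± 0.74 in N2 az02 and 4.7% ± 0.53 in sacy-1, against 8.17% ± 1.28 in N2 az04 and 7.62% ± 1.34 in mog-5.

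**Figure D5:**
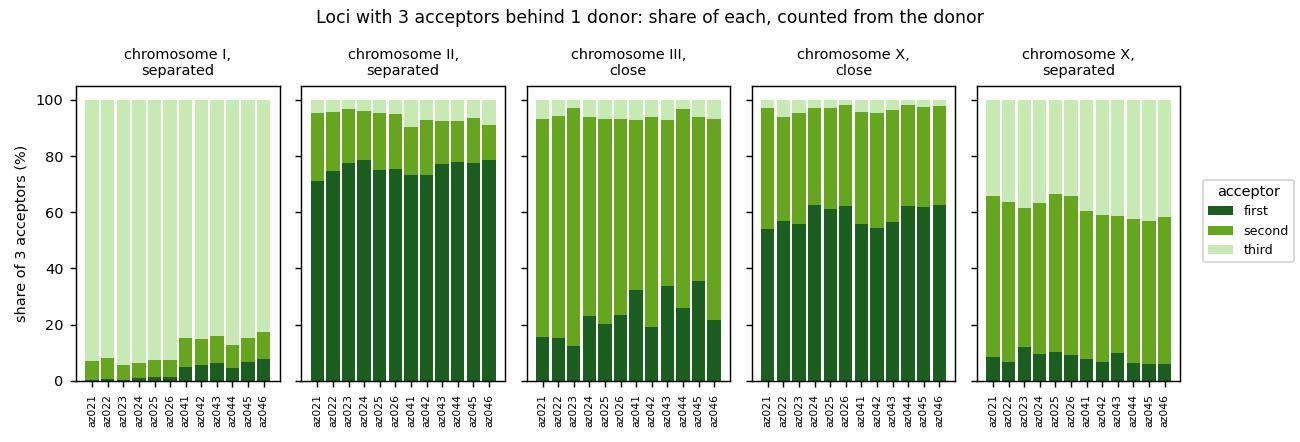
Share of each of 3 acceptors in percent (vertical axis), counted from the donor, in each of the 12 libraries (horizontal axis) at the 5 loci where the pairwise values combine. At the close locus on chromosome X the first acceptor takes about 62% in both mutants and 55.6% in both N2 sets, while at the chromosome I locus the az04 series differs from the az02 series.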

How the data were processed

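The authors deposited, for each of the 12 libraries, lists of splicing events with a score per mille for an included and an excluded form, with coordinates on ce10 per the file headers. Tools listed by the submitters' processing notes are Bowtie2, STAR and SAMtools, with no version. How the score was made from reads is not given in the sources used here. For alternative last exons both scores always summed to 1000. Use is the percent of both scores that the included form took, turned to the upstream acceptor. No read counts were used, so the count test foreseen was replaced by limma 3.58.1 in R 4.3.3, as planned for percentages. The fits ran on every event of the Ensembl archive 65 catalogue listed in all libraries of a comparison, with Benjamini-Hochberg adjustment over it and no covariates. They were checked on simulated data.

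The pairs named are those called, the 5 per mutant and kind with the smallest adjusted p without overlap, the 3 per kind with the largest difference between N2 sets, and the 5 separated ones steadiest near even use, 1 per locus. Members and lists were chosen with earlier results of these data known. Last exons were not matched to genes, and no genome or annotation of build ce10 and no sequence was used here. Class means carry no p-value. Alternatives covered the scale, spread estimate, minimum difference, score sum, listing, control set and each library left out, and entering each acceptor pair once was added after seeing the data. Tables and figures were made with Python 3.11.15, pandas 2.3.3 and matplotlib 3.10.9.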

Additional observations from a re-analysis of the deposited data

Results flagged for a closer look

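At 2 close pairs the shift to the upstream acceptor differed between both mutants by a test of the difference itself. On chromosome II at 12209775 and 12209766 the sacy-1 shift was 36.12 points greater than that of mog-5 (limma adjusted p = 0.01), with upstream use of 81.4% to 82.6% in sacy-1 and 51.1% to 59.8% in mog-5. On chromosome IV at 6325300 and 6325309 it was 34.46 points greater (limma adjusted p = 0.00105), with 76.2% to 76.5% in sacy-1 and 45.1% to 50.3% in mog-5. Each mutant was compared with its own N2 set, and both N2 sets differed by 9.17 points at the first pair and 5.08 points at the second.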

How the results depend on the processing

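With each acceptor pair entered once, the 8 pairs called in sacy-1 became 6. Counted as events, the 12 called in sacy-1 became 19 in 1 fit of all 12 libraries. The count of events ranged from 4 to 10 with 1 library left out. With the other N2 set it became 18, of which 9 were separated and 7 lower upstream, against 0 and 0. In mog-5 the count of 0 became 5 in 1 fit of all 12, 9 with the other N2 set and 5 with all 6 N2 libraries. Between the N2 sets the count of 1 became 3 without a minimum difference and 12 in 1 fit of all 12, and ranged from 0 to 1 with 1 library left out. For the difference between both mutants the 4 events were 2 pairs, and the same 2 were called with each pair entered once. The share of the whole catalogue called is given above only for the main setting and the other N2 set. Taking the median use over events in place of the mean gave, for close events, differences of 26.5 points (sacy-1), 7.67 (mog-5) and 9.55 (N2 sets). For separated events it gave -0.24, 0.4 and 1.24. These are differences between medians of use, not the shift of a typical pair. The median of the differences over close pairs was 1.21, 1.2 and 0.408 points in the same order. Against the other N2 set the close means differed by 3.32 (sacy-1) and 7.77 (mog-5) and the separated means by -1.09 and 0.241. Between the N2 sets the separated mean turned to -0.306 with 1 event per locus and -0.0588 with each pair once, and that of mog-5 from -0.246 to 0.0339 with each pair once, within the spread. Named pairs turned direction at 13151083 (0.337 in sacy-1, other N2 set), 3921805 (4.01 with all 6 N2, 12.2 with the other set), 9259557 (0.52 in mog-5, other set) and 8338990 (-0.515 with all 6 N2, -4.45 with the other set). The causes were not tested, apart from the duplicates that entering pairs once removes. Unknown depth limits every single value.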
